A study of Mus musculus with 2 samples.

Results

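Bmi1, Hopx, Lrig1, Mex3a, Clu, Msi1 and Anxa1 were read as a group of 7 genes, out of 27998 in the matrices, because each has been proposed to mark reserve stem cells, cells at the fourth position above the crypt base, or the stem cells that refill a damaged crypt. They were followed in single-cell RNA profiles of crypts, the pockets of the intestinal lining in which stem cells sit, from the jejunum of 2 male mice, both 12 months old. Both mice lacked the microRNA miR-375 in every tissue (375KO), from a CRISPR/Cas9 deletion made in hybrid embryos and then crossed onto B6 albino mice. The strain entry of the labels reads C57BL6/2J. There was a single library per mouse (replicate 1, replicate 2). All cells carried the deletion, so no value below is a comparison with miR-375 present. The cells were annotated by the authors as stem, transit-amplifying (TA), enterocyte, secretory progenitor, goblet progenitor, goblet, Paneth, enteroendocrine (EEC) and tuft cells, and as intraepithelial lymphocytes (IEL), which makes 9 epithelial types and 1 immune type.

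The small intestinal epithelium is renewed by crypt base columnar stem cells, which carry the R-spondin receptor Lgr5 and divide often. Reserve or label-retaining cells were described apart from them through reporter alleles, first at Bmi1 and Hopx, then at Lrig1 and, within the Lgr5 population, through Mex3a. After irradiation or ulceration a regenerative state appears in which Clu marks revival stem cells and Anxa1 belongs to a fetal-like programme driven by Yap. Most of these genes were named from reporter mice or injury models, and their messenger RNA in an undisturbed crypt is a separate measurement, which is what the counts below give.

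On the mouse GRCm38 (mm10) build, with GENCODE M21 gene models and positions counted from 1, all 7 are protein-coding genes. Bmi1 lies at chr2:18677018-18686629 on the plus strand, Hopx at chr5:77086988-77115121 on the minus strand, Lrig1 at chr6:94604529-94700158 on the minus strand and Mex3a at chr3:88532395-88541396 on the plus strand. Clu lies at chr14:65968483-65981547 and Msi1 at chr5:115429599-115455698, both on the plus strand, and Anxa1 at chr19:20373428-20390944 on the minus strand. RefSeq promoter windows on GRCm38.p6, each from 250 bases before to 50 bases after an annotated start, were found for 5 of the 7 genes. The 4 below put 3 genes that were read in stem cells beside Anxa1, which was not, and capitals mark every CG dinucleotide. They are chr2:18676768-18677067 on the plus strand for Bmi1, chr6:94700096-94700395 on the minus strand for Lrig1, chr3:88531696-88531995 on the plus strand for Mex3a and chr19:20390622-20390921 on the minus strand for Anxa1.
Bmi1: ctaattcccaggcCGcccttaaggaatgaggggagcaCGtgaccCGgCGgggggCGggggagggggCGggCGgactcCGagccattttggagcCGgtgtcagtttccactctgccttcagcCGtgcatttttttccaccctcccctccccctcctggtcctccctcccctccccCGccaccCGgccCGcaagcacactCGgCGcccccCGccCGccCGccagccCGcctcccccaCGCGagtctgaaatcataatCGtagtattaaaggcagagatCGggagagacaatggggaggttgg
Lrig1: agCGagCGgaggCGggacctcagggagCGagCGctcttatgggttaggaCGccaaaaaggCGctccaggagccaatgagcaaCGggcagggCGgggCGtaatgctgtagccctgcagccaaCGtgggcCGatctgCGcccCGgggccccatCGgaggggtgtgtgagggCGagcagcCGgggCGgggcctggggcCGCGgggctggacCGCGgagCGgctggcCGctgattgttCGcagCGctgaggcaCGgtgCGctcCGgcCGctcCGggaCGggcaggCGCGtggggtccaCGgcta
Mex3a: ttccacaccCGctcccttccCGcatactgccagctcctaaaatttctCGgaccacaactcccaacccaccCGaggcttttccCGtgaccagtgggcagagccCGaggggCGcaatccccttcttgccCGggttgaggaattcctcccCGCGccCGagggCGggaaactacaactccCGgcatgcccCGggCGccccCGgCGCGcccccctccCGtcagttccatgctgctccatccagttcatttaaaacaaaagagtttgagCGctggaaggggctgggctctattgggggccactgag
Anxa1: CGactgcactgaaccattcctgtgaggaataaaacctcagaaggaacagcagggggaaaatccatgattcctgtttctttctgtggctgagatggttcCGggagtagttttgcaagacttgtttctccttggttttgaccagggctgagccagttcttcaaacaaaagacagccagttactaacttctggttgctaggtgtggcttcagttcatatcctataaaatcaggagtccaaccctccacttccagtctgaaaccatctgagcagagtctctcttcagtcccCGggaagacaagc
The Lrig1 window held 35 CG dinucleotides, Bmi1 23, Mex3a 20 and Anxa1 3, against a median of 7 over 32851 promoters of the same length. As many as Lrig1 were found in 6.95% of all promoters, as many as Bmi1 in 21.5%, as many as Mex3a in 26.5% and as many as Anxa1 in 76.7%. The 2 Hopx windows, one for each annotated start, held 8 and 21. TATAAA, searched on both strands, was present in the Anxa1 window and in none of the other windows of these genes, and 13.6% of all promoters hold it. These counts describe the letters of the windows and say nothing about which factors bind there.

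Replicate 1 held 7665 barcodes with 64305085 unique molecular identifiers (UMIs, each standing for 1 captured RNA molecule) and replicate 2 held 1251 with 23675011. The authors kept 2082 and 1193 cells after removing doublets with scDblFinder, with medians of 16475 and 15232 UMIs. The 2 libraries shared no barcode among kept cells. The median share of mitochondrial reads was 10.2% in replicate 1 and 5.55% in replicate 2. Markers of the epithelial types, goblet progenitors aside, were highest in their own type in both mice, apart from Ascl2, Pcna, Stmn1, Tubb5, Atoh1 and Dll4. The IEL class was mixed: mast cell markers summed to 3206 CPM in replicate 1 and 0 in replicate 2, and B and plasma cell markers to 34.3 CPM in replicate 1 and 5204 in replicate 2. For each gene the UMIs of all cells of 1 type in 1 mouse were summed, divided by the sum over all genes and scaled to 1000000 UMIs (CPM). The sums of the 9 epithelial types ran from 215413 to 19366535 UMIs, and the smallest classes were the 19 secretory progenitors and 20 EEC of replicate 2. The intervals given with CPM values are 95% Poisson intervals and cover counting error only. Reads came from the 3′ end of transcripts, so CPM values are compared between types within a gene and not between genes.

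**Figure D1:**
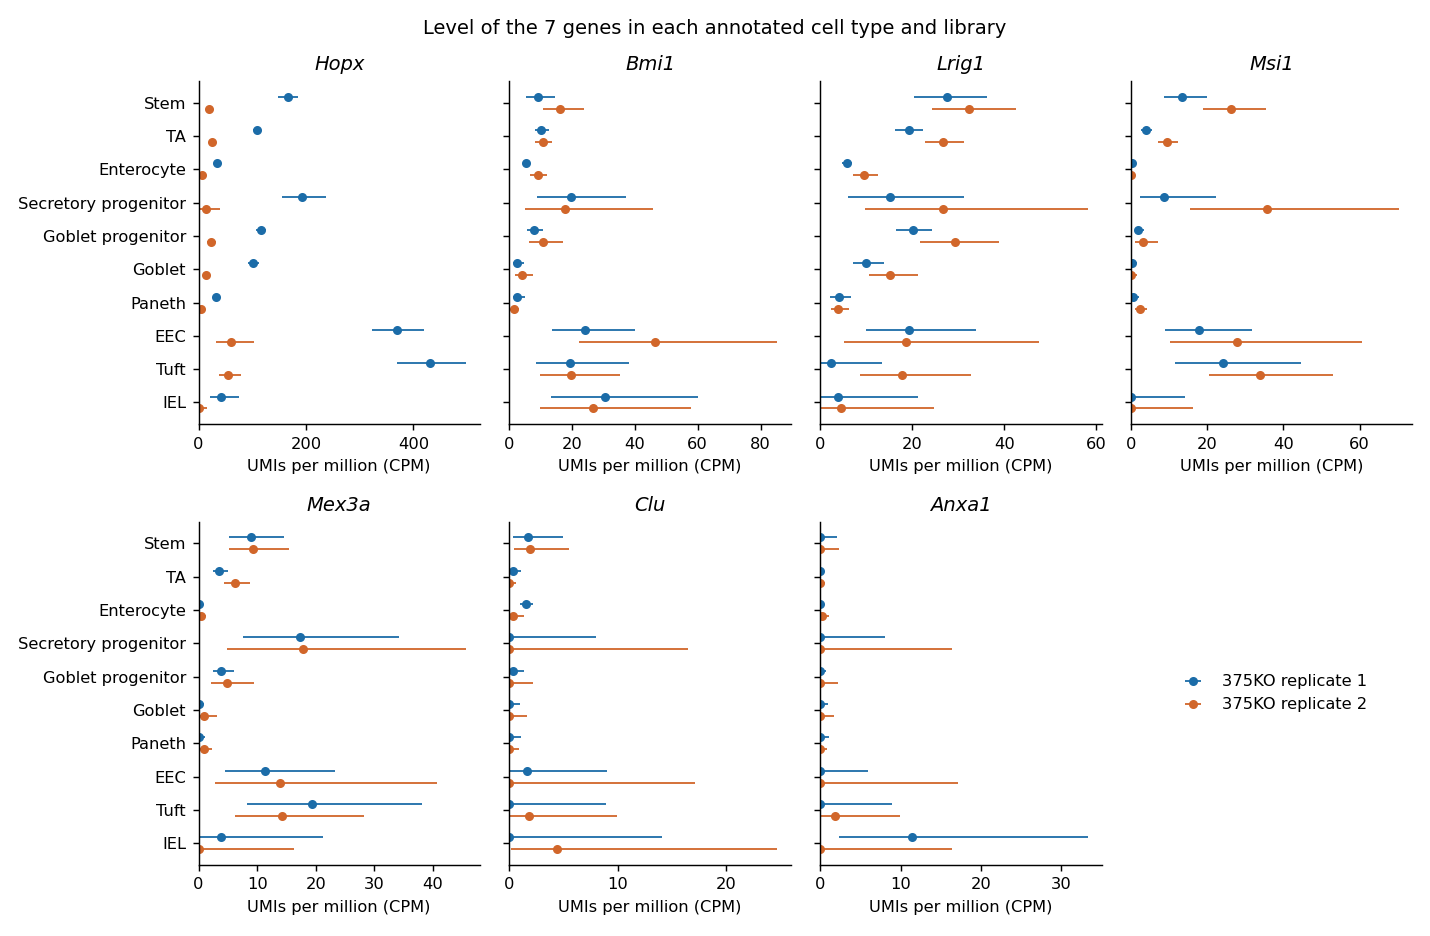
CPM (x axes, each starting at 0) of the 7 genes in the 10 annotated types (y axes), with 1 point per library and 95% Poisson intervals. Hopx lies far to the right in replicate 1, Msi1 and Mex3a sit at or next to 0 in enterocytes and goblet cells, and Clu and Anxa1 stay near 0 in nearly all types.

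Hopx gave 3844 UMIs in 1518 of the 3275 kept cells, Lrig1 880 in 693 cells, Bmi1 503 in 442, Msi1 241 in 184 and Mex3a 173 in 144. Clu gave 45 UMIs in 20 cells and Anxa1 5 UMIs in 4 cells. The filter on low counts therefore kept 5 of the 7 genes for testing, and Clu and Anxa1 are given as counts. All 5 tested genes differed across the 9 epithelial types (edgeR quasi-likelihood F test with a term for the mouse, Benjamini-Hochberg adjusted over 11013 genes). The adjusted p was 1.58e-11 for Msi1, 5.97e-11 for Hopx, 1.58e-07 for Mex3a, 4.76e-06 for Lrig1 and 2.23e-04 for Bmi1. Of all genes tested, 77.3% passed the same test. The types were named by the authors from the expression of these same cells, so each p measures how alike the 2 mice were on classes built from expression. With no filter on low counts, Clu had an adjusted p of 0.146 and Anxa1 of 0.999 over 17626 genes, of which 53.8% passed.

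In annotated stem cells, 3 of the 5 tested genes stood above the mean of the other 8 types, and 15.4% of all genes tested were higher there. Msi1, an RNA-binding protein first known from neural progenitors, was 2.26 higher on the log2 scale (SE 0.32, adjusted p = 4.07e-06). Mex3a, an RNA-binding ubiquitin ligase, was 1.45 higher (SE 0.44, adjusted p = 0.0140), and Lrig1, which restrains ErbB receptors, was 0.81 higher (SE 0.21, adjusted p = 0.00415). The genes with the oldest reserve cell reporters gave no difference: Bmi1 differed by 0.06 (SE 0.28, adjusted p = 0.945) and Hopx by -0.05 (SE 0.17, adjusted p = 0.907). These fold changes are on sums scaled with trimmed means of M values (TMM), in edgeR, with 2 mice. Without the mouse term neither Lrig1 (adjusted p = 0.141) nor Mex3a passed.

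Against TA cells, their dividing progeny, stem cells differed in 1 of the 5 genes, beside 1.90% of all genes that were higher in stem cells. Msi1 was 1.73 higher in stem cells on the log2 scale (SE 0.35, adjusted p = 0.00148), at 13.5 CPM against 3.91 in replicate 1 and 26.2 against 9.44 in replicate 2. Mex3a was at 8.97 CPM in stem and 3.55 in TA cells of replicate 1, and at 9.35 and 6.30 in replicate 2. Its log2 difference of 1.07 (SE 0.48) did not pass (adjusted p = 0.240). Lrig1 differed by 0.52 (SE 0.23, adjusted p = 0.232), Bmi1 by 0.36 (SE 0.32, adjusted p = 0.638) and Hopx by 0.36 (SE 0.21, adjusted p = 0.413). For Hopx the mice went opposite ways, with 166 CPM in stem and 109 in TA cells of replicate 1 and 19.3 and 25.5 in replicate 2. Without the mouse term the Msi1 difference did not pass (adjusted p = 0.446). With cells thinned to 5000 UMIs, Hopx passed as well (0.82, adjusted p = 0.0450).

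**Figure D2:**
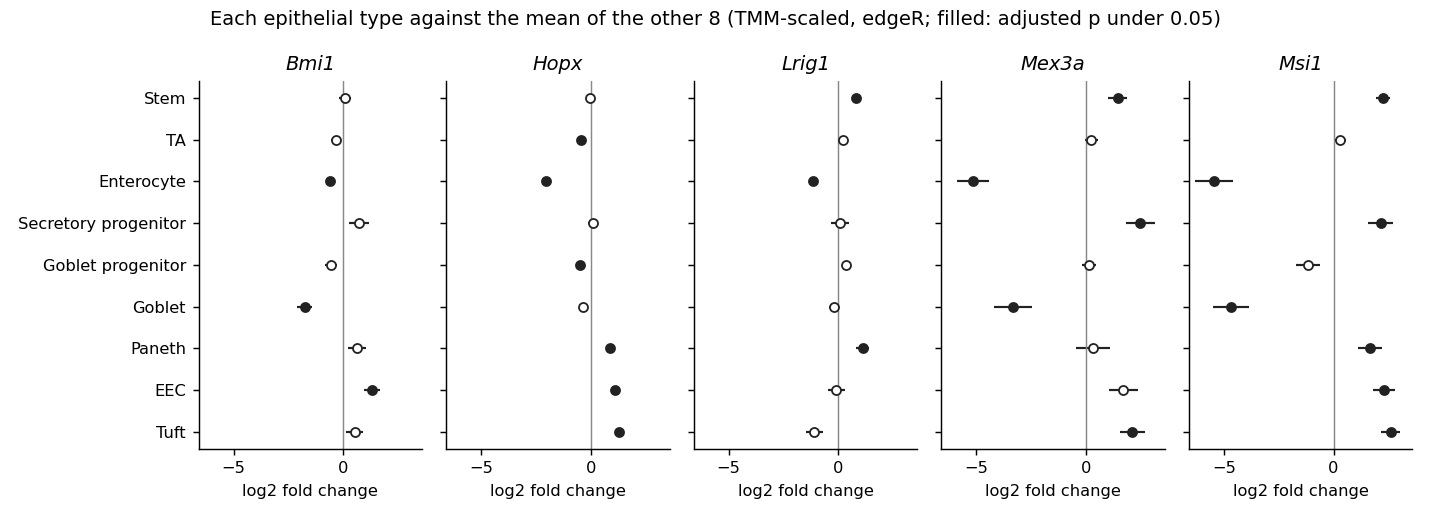
log2 fold change (x axes) of each epithelial type against the mean of the other 8 (y axis) for the 5 tested genes, with bars of 1 SE, filled points for adjusted p under 0.05 in edgeR and open points for the rest. Enterocytes are filled to the left in all 5 panels, tuft cells are filled to the right for Hopx, Mex3a and Msi1, and the far left points of Mex3a and Msi1 rest on sums of 0 to 2 UMIs, while all Paneth points turn negative without TMM factors.

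Over all types, 24 of the 45 pairs of a tested gene and a type passed, 14 above and 10 below the mean of the others. In EEC, the hormone-secreting cells, 3 genes were higher (Bmi1, Hopx and Msi1), beside 13.5% of all genes. In tuft cells, the chemosensory cells, 3 were higher (Hopx, Mex3a and Msi1), beside 10.0% of all genes. In secretory progenitors 2 were higher (Mex3a and Msi1), beside 3.51%. In enterocytes, the absorptive cells, all 5 were lower, beside 23.2%, and in goblet cells, which make mucus, 3 were lower (Bmi1, Mex3a and Msi1), beside 11.4%. Hopx alone was lower in TA cells, beside 13.6% of all genes, and in goblet progenitors, beside 3.22%. In Paneth cells, which release antimicrobial peptides, Hopx, Lrig1 and Msi1 were higher, beside 15.5%, but these 3 calls depend on the scaling. In cells thinned to 5000 UMIs 10 of the 24 pairs passed, and the enterocyte and goblet calls of Mex3a and Msi1, which rest on 0 to 2 UMIs per sum, were among those lost.

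The Paneth sums had TMM factors of 0.156 in replicate 1 and 0.121 in replicate 2, against 0.952 to 1.59 in the other types. Markers of Paneth cells alone made up 512097 and 397733 CPM of these sums. On CPM without TMM factors, the difference of Paneth cells from the mean of the other types turned negative for all 5 tested genes, from -1.46 for Msi1 to -2.06 for Hopx on the log2 scale. The median of all genes tested moved from -0.04 with TMM to -2.15 without it, and the 5 genes lay above that median on both scales. With each cell reduced to 5000 UMIs, Hopx in Paneth cells was at -0.02 with TMM, and none of the 3 Paneth calls passed.

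Bmi1 encodes a Polycomb protein of repressive complex 1 that keeps the Cdkn2a locus silent, and its reporter was among the first to label cells above the crypt base. EEC carried the most Bmi1 among epithelial types, with 24.2 CPM in replicate 1, from 15 UMIs (13.5 to 39.9), and 46.4 CPM in replicate 2, from 10 UMIs (22.3 to 85.4). Secretory progenitors had 19.5 and 17.9 CPM and tuft cells 19.3 and 19.6. Stem cells were lower and less alike, with 8.97 CPM from 16 UMIs in replicate 1 and 16.2 from 26 UMIs in replicate 2. TA cells had 10.2 and 10.7 CPM, goblet progenitors 7.82 and 10.8, enterocytes 5.27 and 8.97, goblet cells 2.38 and 4.02 and Paneth cells 2.56 and 1.37. Paneth cells ranked between secretory progenitors and tuft cells once TMM factors were applied. The 8 UMIs of IEL in replicate 1 and 6 in replicate 2 gave 30.5 and 26.6 CPM, so the immune class was in the range of EEC. The 8 markers of IEL summed to 3.22 CPM in the EEC of replicate 1 and 1281 in those of replicate 2, beside 18630 and 10185 in IEL, and their part in the EEC level was not tested. EEC stood above the other 8 types, on average, by 1.32 (SE 0.36, adjusted p = 0.00799 in edgeR), and goblet cells fell below it (log2 fold change -1.75, SE 0.34, adjusted p = 1.19e-04). Enterocytes also fell below it, by less (-0.59, SE 0.22, adjusted p = 0.0217). In cells thinned to 5000 UMIs the EEC difference (adjusted p = 0.145) and the enterocyte difference (adjusted p = 0.171) did not pass, nor did the latter with at most 10% mitochondrial reads (adjusted p = 0.0965). Ordered by TMM-scaled level, the only neighbouring types that differed were enterocytes and goblet cells (1.03, SE 0.38, adjusted p = 0.0276), where 23.9% of all genes were higher in enterocytes. Commd3 ends 786 bases before Bmi1 on the same strand and has known read-through transcripts. It gave 77.2 CPM in replicate 1 and 49.9 in replicate 2. Whether reads of such transcripts were counted as Bmi1 was not tested.

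Hopx encodes a small homeodomain protein without DNA binding of its own. It was the most unequal of the genes between the mice. In replicate 1, tuft cells had 430 CPM, EEC 369, secretory progenitors 193, stem cells 166, goblet progenitors 116, TA cells 109, goblet cells 101, IEL 41.9, enterocytes 33.7 and Paneth cells 33.3. In replicate 2, EEC had 60.3 CPM, tuft cells 55.4, TA cells 25.5, goblet progenitors 23.4, stem cells 19.3, goblet cells 13.9, secretory progenitors 13.4 from 3 UMIs, enterocytes 6.73, Paneth cells 3.90 and IEL none. Tuft cells and EEC therefore led in both mice, and enterocytes and Paneth cells were lowest among epithelial types in both on this unscaled level, though Paneth cells followed EEC with TMM factors, while stem cells stood in the middle of the order in both. With the mouse as a term, tuft cells exceeded the mean of the others by 1.29 (SE 0.18, adjusted p = 1.19e-06) and EEC by 1.10 (SE 0.19, adjusted p = 3.21e-05), and enterocytes lay below it (-2.03, SE 0.18, adjusted p = 5.28e-11). TA cells were below it by -0.46 (SE 0.16, adjusted p = 0.0270), with -0.74 in replicate 1 and 0.04 in replicate 2, so the direction held in 1 of 2 mice. Goblet progenitors were at -0.51 (SE 0.17) with an adjusted p of 0.04999, just under the threshold. With DESeq2 neither the TA (adjusted p = 0.152) nor the goblet progenitor difference (adjusted p = 0.257) passed. Down the order of levels, TA cells exceeded enterocytes (1.40, SE 0.21, adjusted p = 1.89e-06), as did 22.6% of all genes, and no other neighbours differed.

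Summed over the epithelial cells, Hopx was at 79.7 CPM in replicate 1 and 15.8 in replicate 2, a ratio of 5.04, and it was higher in replicate 1 in 9 of 9 types. The ratio within types ran from 4.26 in TA cells to 14.4 in secretory progenitors. Of all genes tested, 11.5% were higher in replicate 1 in every type, and 1.23% had a ratio as far from 1 as Hopx or farther. At least a 2-fold difference in either direction was seen for 2 of the 5 tested genes, Hopx and Msi1, beside 13.1% of all genes. Msi1 went the other way, with 2.22 CPM in replicate 1 and 6.56 in replicate 2, a ratio of 0.338. Enterocytes, with almost no Msi1, gave 19366535 of 44017234 UMIs of kept cells in replicate 1 and 5348340 of 22163354 in replicate 2. The part of this mix of types in the ratios was not tested. Within types with UMIs in both mice, the Msi1 ratio ran from 0.243 in secretory progenitors to 0.713 in tuft cells, with 0.514 in stem cells. Lrig1 had a ratio of 0.669, Mex3a of 0.550 and Bmi1 of 0.769, each being higher in replicate 2 in 7 or 8 of the 9 types. Each library is 1 mouse, so library and mouse cannot be told apart, and the share of mitochondrial reads differed as well, with its part not tested. Hopxos, the antisense gene that overlaps Hopx by 7772 bases, gave 15 UMIs in replicate 1 and 27 in replicate 2, so it did not follow the Hopx counts. Without the mouse term no call for Hopx passed in any type, with adjusted p values from 0.311 to 0.984 for the calls listed above.

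**Figure D3:**
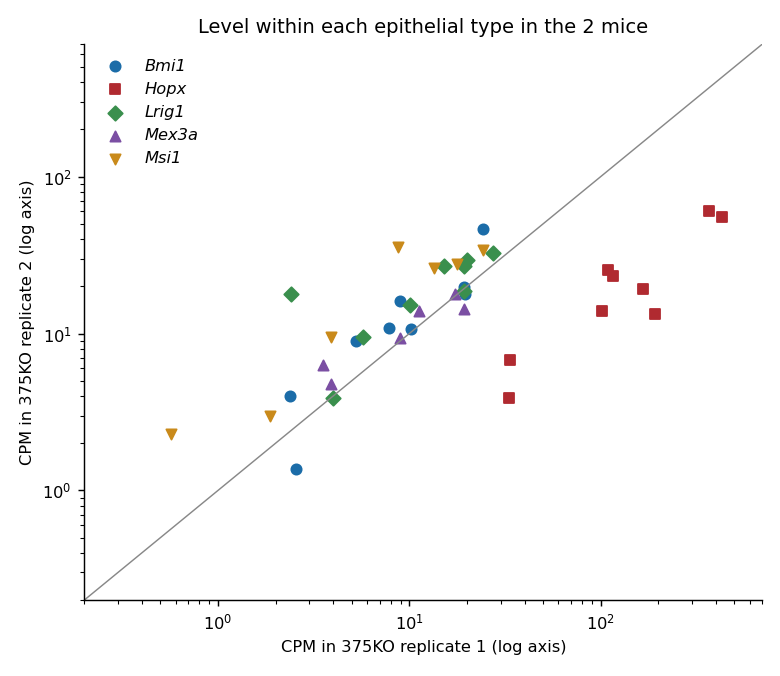
CPM of the 5 tested genes in each epithelial type, replicate 1 (x axis) against replicate 2 (y axis), both log axes, with the line of equal values. Types in which a gene had no UMI in at least 1 of the mice are not drawn for that gene. All 9 Hopx points lie below the line, between ratios of 4.26 and 14.4, and most points of the other genes lie near or above it.

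Lrig1 encodes a transmembrane protein that promotes removal of ErbB receptors from the cell surface. It was the gene of this group whose level was highest in stem cells on unscaled CPM in replicate 1 and replicate 2 alike, with 27.5 CPM (20.3 to 36.3) from 49 UMIs and 32.4 (24.2 to 42.5) from 52. Goblet progenitors came next in both mice, with 20.1 and 29.4 CPM, and TA cells had 19.2 and 26.8. Secretory progenitors had 15.2 and 26.8 CPM and EEC 19.3 and 18.6. Levels fell off in mature cells, with 10.0 and 15.2 CPM in goblet cells, 5.73 and 9.54 in enterocytes, 3.98 and 3.90 in Paneth cells and 1 UMI per mouse in IEL. With TMM factors Paneth cells instead ranked first, with a mean of 28.9 CPM beside 23.9 in stem cells, and the pair did not differ (0.26, SE 0.33, adjusted p = 0.598). Tuft cells differed between the mice, with 2.42 CPM from 1 UMI in replicate 1 and 17.9 from 10 UMIs in replicate 2. Enterocytes were below the mean of the others (-1.14, SE 0.20, adjusted p = 1.02e-05), and tuft cells, at -1.10 (SE 0.40), did not pass (adjusted p = 0.0617). Thinned, the enterocyte difference was -0.80 (adjusted p = 0.0587). No pair of neighbouring types in the order differed, the closest being EEC above enterocytes by 0.93 (SE 0.43, adjusted p = 0.0799). Slc25a26 overlaps the end of Lrig1 by 144 bases on the opposite strand and was at 10.0 and 8.53 CPM.

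Mex3a and Msi1 encode RNA-binding proteins, and their levels across types were the most alike of any pair among the 5 tested genes, with Pearson's r of 0.82 in replicate 1 and 0.98 in replicate 2 over the 9 types. This is a description over 9 points that share a library. Mex3a was highest in the secretory branch, with 17.4 CPM from 8 UMIs and 17.9 from 4 UMIs in secretory progenitors, 19.3 and 14.3 in tuft cells and 11.3 and 13.9 in EEC. Stem cells had 8.97 CPM (5.13 to 14.6) and 9.35 (5.23 to 15.4). TA cells and goblet progenitors were at 3.55 and 6.30 CPM and at 3.91 and 4.80. Enterocytes had 0 UMIs in replicate 1 and 2 in replicate 2, as did goblet cells, and Paneth cells had 0 and 4, so these types were at or under 0.917 CPM before scaling, and Paneth cells had a mean of 3.79 CPM with TMM factors. The IEL of both mice held 1 Mex3a UMI.

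Secretory progenitors exceeded the mean of the others in Mex3a by 2.47 (SE 0.66, adjusted p = 0.0231) and tuft cells by 2.11 (SE 0.58, adjusted p = 0.00949). EEC, at 1.71 (SE 0.67), did not pass (adjusted p = 0.0695) but did with DESeq2 (adjusted p = 0.0119). The secretory progenitor and tuft differences did not pass without the mouse term (adjusted p = 0.146 and 0.0518), nor did that of secretory progenitors in thinned cells (adjusted p = 0.402). The first neighbours in the order that differed were goblet progenitors, with 21 and 8 UMIs, above goblet cells, with 0 and 2 (adjusted p = 0.0129), and 13.2% of all genes were higher in goblet progenitors in that comparison. The stem cell call for Mex3a did not hold without the mouse term (adjusted p = 0.118), in cells thinned to 5000 UMIs (log2 fold change 1.98, adjusted p = 0.0701) or in cells with at most 10% mitochondrial reads (1.32, adjusted p = 0.0546). The last filter left 62 of 139 stem cells in replicate 1 and 105 of 117 in replicate 2.

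Msi1 was at 24.2 CPM (11.6 to 44.5) in tuft cells of replicate 1 and 33.9 (20.4 to 53.0) in replicate 2. EEC had 17.7 and 27.9 CPM, stem cells 13.5 (8.62 to 20.02) and 26.2 (18.9 to 35.4), and secretory progenitors 8.69 from 4 UMIs and 35.7 from 8 UMIs. No neighbours in the order differed among these 4 types. TA cells had 3.91 and 9.44 CPM, goblet progenitors 1.86 and 2.999 and Paneth cells 0.569 and 2.29. Only 2 UMIs were found in the 1313 enterocytes, 1 in the 415 goblet cells and none in IEL. Tuft cells exceeded the mean of the others by 2.61 (SE 0.42, adjusted p = 2.18e-05), EEC by 2.28 (SE 0.50, adjusted p = 8.85e-04) and secretory progenitors by 2.15 (SE 0.57, adjusted p = 0.0222), the last neither without the mouse term (adjusted p = 0.193) nor in thinned cells (adjusted p = 0.137). Goblet progenitors, with 10 and 5 UMIs, exceeded goblet cells, with 1 and 0 (adjusted p = 0.0287), the second gene with a difference at that step. Of the 40 neighbouring pairs in the orders of the 5 genes, these steps and those named for Bmi1, Hopx and Mex3a made 4 that passed, and none did without the mouse term.

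Clu encodes clusterin, a secreted chaperone and the marker of revival stem cells. It was found in 3 stem cells of replicate 1 and 2 of replicate 2, with 3 UMIs in each mouse, which is 1.68 CPM (0.347 to 4.91) and 1.87 (0.386 to 5.46). Enterocytes of replicate 1 held 29 of its 45 UMIs, in 7 of 931 cells, and 17 of these were in a single cell. In replicate 2, 2 of 382 enterocytes held 1 UMI each. The remaining counts were 3 UMIs in TA cells, 2 in goblet progenitors and 1 each in EEC, tuft cells and IEL, while goblet cells, Paneth cells and secretory progenitors held none. After thinning to 5000 UMIs, 4 of 253 stem cells (1.58%) and 3 of 1312 enterocytes (0.229%) had a Clu UMI, and the difference rests on single molecules.

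Anxa1 encodes annexin A1, a calcium-dependent phospholipid-binding protein of the fetal-like epithelium. It had 0 UMIs in all 256 stem cells, which allows a share of up to 1.17% of stem cells with a UMI, and 0 in all 643 TA cells, which allows up to 0.467%. These limits cover counting error only. Its 5 UMIs were 3 in 2 IEL of replicate 1 and 1 each in a tuft cell and an enterocyte of replicate 2. None of the 4 cells held a UMI of the mast cell markers or of Cd3g or Cd8a. At this depth Anxa1 was not detectable in stem cells, and its level in the immune class came from 2 cells.

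The share of cells with at least 1 UMI was compared after every cell was thinned to 5000 UMIs, with exact binomial 95% intervals that cover counting error only. Thinning left out 46 cells in replicate 1, of which 39 were IEL, and none in replicate 2. Hopx was seen in 61.8% (53.0 to 70.0) of stem cells in replicate 1 and 9.40% (4.79 to 16.2) in replicate 2, beside 14.9% (12.7 to 17.4) and 4.45% (2.61 to 7.03) of enterocytes. Tuft cells (82.1% and 13.2%) and EEC (73.6% and 35%) had larger Hopx shares than stem cells in both mice. Secretory progenitors (58.1% and 10.5%) did in replicate 2 only, and TA cells (35.3% and 8.67%) in neither. Lrig1 was seen in 13.2% and 19.7% of stem cells and in 2.80% and 6.02% of enterocytes, and the intervals of the 2 types did not overlap in either mouse. How many of all genes did the same was not counted. Msi1 was seen in 5.88% and 12.8% of stem cells and Mex3a in 5.15% and 3.42%. In thinned enterocytes neither gene was seen in any of 1312 cells, which allows a share of up to 0.229%. Mex3a shares were above those of stem cells in tuft cells (10.3% and 7.89%) and EEC (5.66% and 5%) of both mice. Msi1 shares were so in EEC (9.43% and 15%) and secretory progenitors (6.45% and 15.8%). Secretory progenitors for Mex3a and tuft cells for Msi1 were so in only 1 mouse, and TA cells in neither. Each share given for these types rests on at most 5 cells. Bmi1 gave 4.41% and 11.1% of stem cells against 3.66% and 4.45% of enterocytes, with overlapping intervals in both mice. Before thinning, at median depths of 12282 and 12559 UMIs in stem cells and 16975 and 13405 in enterocytes, the stem cell shares were 10.1% and 18.8% for Bmi1, 87.1% and 23.1% for Hopx, 29.5% and 31.6% for Lrig1, 10.8% and 12.8% for Mex3a and 13.7% and 27.4% for Msi1.

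**Figure D4:**
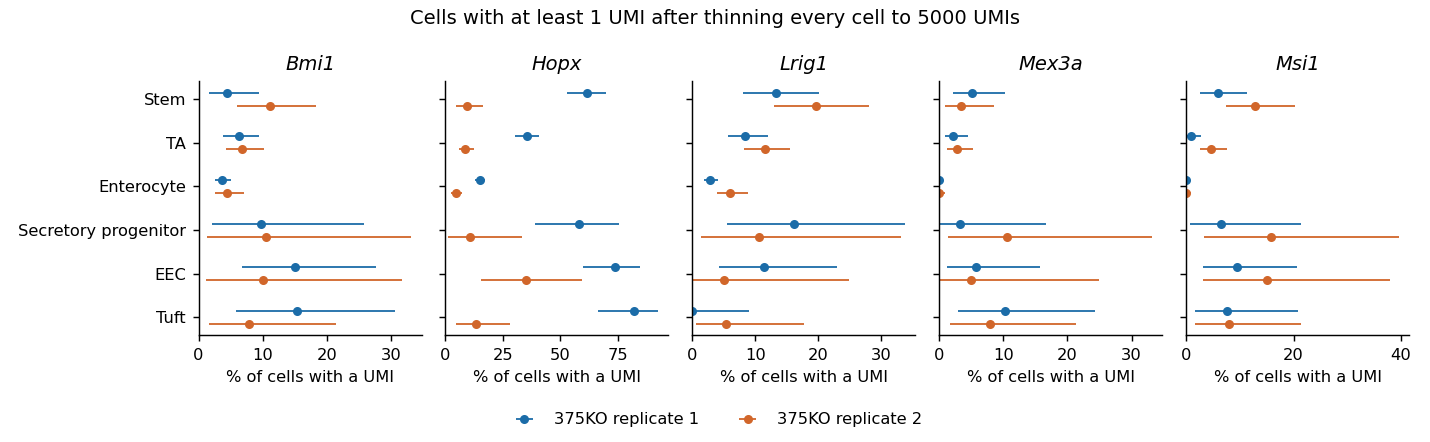
Percent of cells with at least 1 UMI (x axes, each starting at 0) after thinning to 5000 UMIs per cell, for 5 genes in 6 types (y axis), with 1 point per library and exact 95% intervals. Hopx separates the mice, with 61.8% and 9.40% of stem cells, and Mex3a and Msi1 are at 0 in enterocytes of both.

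Few cells held several of the genes at this depth. Of the thinned stem cells, 33.1% in replicate 1 and 52.1% in replicate 2 held none of the 7, and 20.6% and 8.55% held 2 or more. Among enterocytes 79.8% and 86.1% held none. Shares with 2 or more were above those of stem cells in EEC (32.1% and 20%), tuft cells (23.1% and 10.5%) and secretory progenitors (22.6% and 15.8%). They were lower in TA cells (8.13% and 5.26%) and enterocytes (1.40% and 1.31%). Mex3a and Msi1, the most alike across types, were not found together in any thinned stem cell of either mouse, at shares where few joint cells could be seen.

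Within the stem class, cells with an Lgr5 UMI were set beside those without one, a split made after the data were seen and given with no test. There were 45 and 94 such cells in replicate 1 and 29 and 88 in replicate 2, and the cells with Lgr5 were shallower, with medians of 9464 and 11430 UMIs against 13550.5 and 13009.5. Msi1 was at 29.2 CPM (15.9 to 48.9) with Lgr5 and 7.67 (3.68 to 14.1) without it in replicate 1, and at 53.0 (32.4 to 81.8) and 17.9 (11.2 to 27.1) in replicate 2. The counting intervals of Msi1 did not overlap in either mouse. The share of all genes for which that held was not counted, so it does not set Msi1 apart from other genes. Mex3a was at 20.8 and 4.60 CPM in replicate 1 and at 13.2 and 8.15 in replicate 2. Lrig1 was at 39.6 and 23.0, then at 45.0 and 28.5, with overlapping intervals. Bmi1 leaned the other way in both mice, at 6.25 and 9.97 and at 10.6 and 17.9, from 3 and 4 UMIs in the cells with Lgr5. Hopx was at 206 and 151 CPM in replicate 1 and at 26.5 and 17.1 in replicate 2.

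**Figure D5:**
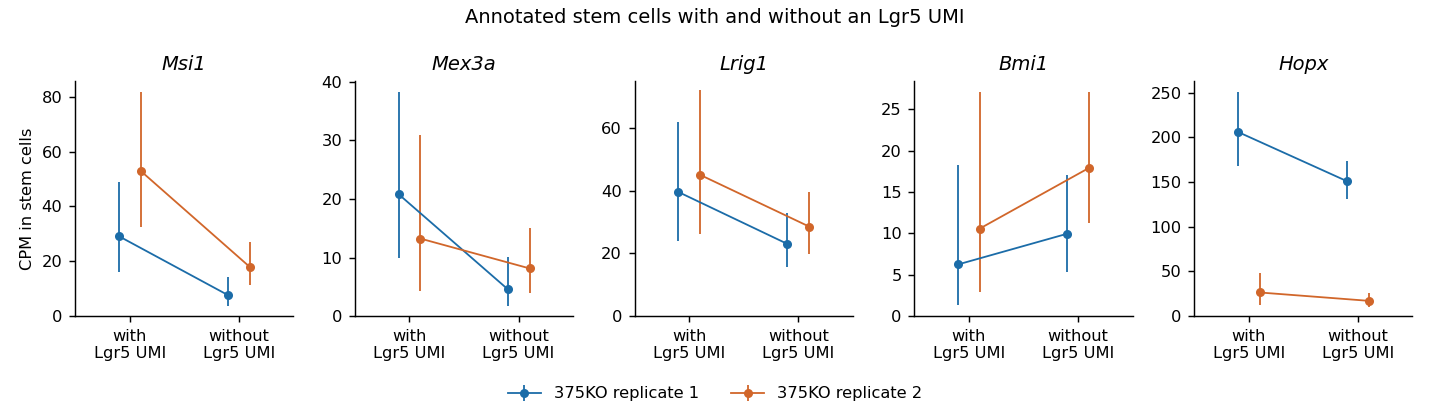
CPM of 5 genes (y axes, each starting at 0) in annotated stem cells with and without an Lgr5 UMI (x axes), with 1 line per library and 95% Poisson intervals. Msi1, Mex3a, Lrig1 and Hopx are higher in the cells with Lgr5 in both libraries and Bmi1 is lower in both.

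Since several of the genes are proposed to mark slow-cycling cells, stem cells were also divided within each mouse at the median of the share of UMIs from 12 proliferation genes, a split likewise made after the data were seen. The lower and higher groups held 70 and 69 cells in replicate 1 and 59 and 58 in replicate 2. None of the 5 tested genes differed between these groups in edgeR over 9399 genes, beside 0.915% of all genes higher and 1.26% lower in the group with the lower share, and DESeq2 called none but returned no adjusted p for Mex3a. At an unadjusted p under 0.05 there was 1 gene, Mex3a, with 11.3 CPM in the lower and 7.07 in the higher group of replicate 1 and 14.2 and 4.81 in replicate 2 (log2 fold change 1.15, SE 0.57, adjusted p = 0.395). Bmi1 was at 7.55 and 10.1 CPM, then 11.6 and 20.5 (-0.54, SE 0.47, adjusted p = 0.737). Hopx, at -0.07 (SE 0.21), Lrig1, at 0.16 (SE 0.30), and Msi1, at 0.45 (SE 0.37), also did not pass (adjusted p = 0.951, 0.912 and 0.712).

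For each tested gene the most similar genes were sought among those with a mean of at least 20 CPM, likeness being the lower of the 2 within-mouse Pearson correlations over the 9 epithelial types. Msi1 was most like Smoc2 (0.86), a matrix protein of crypt base stem cells, Cnn3 (0.85) and Ascl2 (0.85), a transcription factor of the same cells. Mex3a was most like Cnn3 (0.87), Armc10 (0.86) and Hmgn1 (0.85), so Cnn3 stood in both lists. Genes like Hopx included Fam195b (0.91) and Thap3 (0.83), Bmi1 was most like Zbtb20 (0.83), Vwa5b2 (0.77) and Uqcc2 (0.76), and Lrig1 was most like the poly(A)-binding protein genes Pabpc1 (0.82) and Pabpc4 (0.79) and Tifa (0.82). Correlations of Lrig1 with the other 4 tested genes ran from -0.26 to 0.47, and those among the other 4 from 0.49 to 0.98.

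Crypt base columnar markers gave the clearest stem cell pattern of the related lists. In stem cells against the mean of the other types, 11 of 12 were higher, beside 15.4% of all genes, and none lower, with a list median of 1.84 on the log2 scale against 0.03 for all genes tested. Olfm4 was higher by 5.93, Tnfrsf19 by 3.38, Lgr5 by 3.31 and Igfbp4 by 3.26. The Olfm4 level was unequal between replicates 1 and 2, at 313 and 14.3 CPM in stem cells and 47.8 and 4.20 in TA cells. Against TA cells 8 of 12 were higher, beside 1.90% of all genes (median 1.29, and -0.01 for all genes). Stem cells were named from genes of this kind, so these counts describe the class and do not test it. The list was not limited to stem cells. In TA cells 5 of 12 were higher than the mean of the others, beside 19.2% of all genes, led by Olfm4 (2.98, SE 0.71, adjusted p = 0.0176), Igfbp4 (1.08), Ascl2 (0.95) and Axin2 (0.71). Ascl2 was also higher in tuft cells (3.66, adjusted p = 4.49e-10), and Cd44 (2.89, adjusted p = 1.35e-05) and Smoc2 (0.70, adjusted p = 0.0351) in EEC. In Paneth cells 6 of 12 were higher with TMM factors, beside 15.5%. On CPM without these factors, all 6 were lower in Paneth than in stem cells of both mice. Smoc2 was at 14.5 and 14.0 CPM in Paneth cells and 132 and 118 in stem cells, and Lgr5 at 6.83 and 3.90 beside 54.9 and 28.1. The difference of the 6 from the mean of the other types without these factors was not tested.

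The other markers proposed for reserve or slow-cycling cells did not move as one in stem cells, with 2 of 6 tested genes higher and 2 lower. Fgfbp1, a secreted growth factor carrier, was 2.28 higher (SE 0.31, adjusted p = 2.05e-04) and Sox9, a crypt transcription factor, 0.76 higher (SE 0.16, adjusted p = 5.08e-04). Prox1 was lower (-3.28, SE 0.79, adjusted p = 0.00233), as was Cdkn1c, which encodes the cell cycle inhibitor p57 (-3.83, SE 1.27, adjusted p = 0.0485). Both folds rest on counts near 0: stem cells of replicates 1 and 2 held 2 and 0 UMIs of Prox1 and 0 and 2 of Cdkn1c. Of all genes tested, 15.4% were higher and 10.1% lower in stem cells. The list median of -1.26 had the sign of the lower genes. In EEC 2 of the 6 were higher, beside 13.5% of all genes. These were Cdkn1c (6.95, SE 0.34, adjusted p = 4.90e-08) and Prox1 (3.36, SE 0.42, adjusted p = 1.83e-07). In tuft cells 3 of the 6 were higher, beside 10.0%: Dclk1, which also defines them, Prox1 (3.83) and Sox9 (2.25). Against TA cells, Sox9 was the 1 gene of the 6 that passed (1.34, SE 0.21, adjusted p = 4.85e-05), beside 1.90% of all genes higher.

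None of 11 tested cell cycle brakes and quiescence genes was higher in stem cells, beside 15.4% of all genes. Lower were 5 of them, beside 10.1%, with a list median of -0.33. The 4 largest were Cdkn1c, from the 0 and 2 UMIs given above, Cdkn1a (-2.86), Cdkn2b (-2.65) and Btg2 (-2.08). Of the proliferation genes, 4 of 12 were higher in stem cells, beside 15.4% of all genes. These 4 were all of DNA replication: Mcm6 (2.79), Mcm5 (2.56), Mcm2 (2.00) and Pcna (1.35). Against TA cells, 2 of 12 were higher, beside 1.90% of all genes, and 7 lower, beside 2.93%. The lower ones were led by the mitotic genes Aurka (-3.20), Ube2c (-3.12) and Top2a (-3.06). Cdkn2b was the 1 brake of 11 that was lower than in TA cells (-2.99, SE 0.32, adjusted p = 1.86e-07).

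Of 18 revival and fetal-like genes that accompany Clu and Anxa1, 8 passed the filter, and none of the 8 was higher or lower in stem cells (median -0.98) or against TA cells (median 0.28). In stem cells Ly6a, which encodes Sca-1, had 0 UMIs in replicate 1 and 1 in replicate 2, Il33 had 0 in both, Areg 6 and 1 and S100a6 10 and 7, while Cxadr had 93 and 62. Ankrd1, Ctgf and Msln had no UMI in any kept cell. These untested or uncalled genes were picked for mention after their values were seen. In goblet cells 6 of the 8 were higher (median 2.38), beside 17.8% of all genes, led by S100a6 (6.15, SE 0.25, adjusted p = 9.27e-09), Ly6a (4.10, SE 0.73, adjusted p = 1.20e-04, from 26 and 25 UMIs), Cyr61 (3.53) and Areg (3.25). Areg, an EGF receptor ligand, had its highest CPM in enterocytes, with 1066 UMIs in replicate 1 and 43 in replicate 2 (3.54 against the mean of the others, SE 0.32, adjusted p = 1.72e-08). Ly6a was also higher in EEC (4.09, SE 1.13, adjusted p = 0.0108) from 5 and 6 UMIs. It had 75 and 26 UMIs in IEL, whose markers summed to 1281 CPM in the EEC of replicate 2, and their part was not tested.

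Partners and paralogs of the genes were mostly even across the stem class. Of 18 Polycomb repressive complex 1 genes, Cbx6 (0.92) and Pcgf6 (0.85) were higher in stem cells, beside 15.4% of all genes. Pcgf3 (-0.92) was lower, beside 10.1%. The list median was 0.28, and none differed from TA cells. In EEC, where Bmi1 was highest, 6 of the 18 were higher, beside 13.5% of all genes, led by Cbx6 (3.07, SE 0.34, adjusted p = 2.50e-08), Phc1 (1.78), Phc2 (1.08) and Pcgf6 (1.06). None of 6 paralogs of Mex3a, Msi1 and Lrig1 differed in stem cells (median -0.24), while Mex3b (4.11), Mex3d (1.66) and Msi2 (0.86) were higher in EEC, 3 of 6 beside the same 13.5%, and Msi2 in tuft cells (1.67), 1 of 6 beside 10.0%. None of the 3 tested ErbB receptors differed in stem cells (median 0.57), where Lrig1 was high, and Erbb4 had no UMI. Of the 8 tested annexins other than Anxa1, Anxa5 (-1.32) and Anxa4 (-0.53) were lower in stem cells, beside 10.1% of all genes. None was higher (median -0.52).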

How the data were processed

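Jejunal crypt cells of 2 male 375KO mice were profiled with the 10x 3′ v2 kit, 1 library per mouse. Per the labels and the methods of the study, the authors aligned reads to mm10 and counted them with Cell Ranger 3.0.1; the processing notes list Seurat 3.2.1. The deposited matrices hold raw counts of UMIs per gene and barcode, and the authors' cell annotation gives the percent of mitochondrial reads and the cell type. The authors removed doublets with scDblFinder and state a SoupX correction, without saying for which matrices. The strand setting of the counting is not given in the sources used here. A further 2937 cell columns of the whole table were not used. Mir375 is not among the 27998 genes, so its loss was not measured.

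Counts of the 3275 annotated cells were summed per mouse and type, in 20 sums with the IEL and 18 in the fit. edgeR 4.0.16 in R 4.3.3 (filterByExpr, TMM, robust quasi-likelihood, a term for each type and for the mouse, 8 residual degrees of freedom) tested 11013 genes two-sidedly, with Benjamini-Hochberg adjustment and a threshold of 0.05. Standard errors are the log2 fold change divided by the root of F. Each mouse gave every type, so the mouse is a replicate block: over 36 pairs of types the deviations of the mice correlated with r between 0.12 and 0.66 (median 0.31). Alternatives were relative log expression size factors, DESeq2 1.42.0, no filter, no block, IEL added, Paneth cells left out, cells with at most 10% mitochondrial reads, cells thinned to 5000 UMIs, and each mouse alone. A planned comparison of cell cycle phases was not run, since the annotation used has no phase. The splits of stem cells by proliferation and by Lgr5 were added after seeing the data.

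The 7 genes and the lists were chosen with earlier results of these data known. The text names the 7 genes throughout, at most 4 genes per list that passed, by size, and the 3 most similar genes per tested gene, of which 1 is not reported here. The 2 mice are 1 group. With the mouse term, p-values measure how far the differences between types varied between the 2 mice. They do not measure the overall difference between the mice, which that term removes.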

Additional observations from a re-analysis of the deposited data

Results flagged for a closer look

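Barcodes that the authors did not keep as cells, which enter no comparison above, held UMIs of 6 of the 7 genes in replicate 1 and 5 of the 7 in replicate 2. They were 5583 barcodes with 20287851 UMIs in replicate 1 and 58 with 1511657 in replicate 2, and a value is given where it exceeded what a count of 0 allows, 0.148 CPM and 1.98 CPM. In replicate 1 Hopx was at 53.9 CPM in these barcodes and 79.4 in kept cells, Lrig1 at 9.81 and 11.4, Bmi1 at 5.96 and 6.91, Msi1 at 3.01 and 2.20, Mex3a at 1.08 and 2.07 and Clu at 0.394 and 0.863. In replicate 2 Hopx was at 15.2 CPM and 15.7, Lrig1 at 12.6 and 17.0, Msi1 at 4.63 and 6.50, Mex3a at 3.97 and 3.70 and Bmi1 at 2.65 and 8.98. The difference of Hopx between the mice was therefore present in both sets of barcodes. Anxa1 had 0 UMIs in the barcodes not kept.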

How the results depend on the processing

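Without the replicate block, which removes the pairing of types by mouse, genes past the threshold in stem cells against the others fell from 2815 to 1019 and tested genes of the group from 3 to 1, called pairs of a gene and a type from 24 to 10, genes between stem and TA cells from 532 to 70 and those of the group from 1 to 0, and neighbouring pairs from 4 to 0. In cells thinned to 5000 UMIs there were 1815 genes, 10 pairs of a gene and a type (lost: Bmi1 in EEC and enterocytes, Hopx in goblet progenitors and Paneth cells, Lrig1 in enterocytes and Paneth cells, Mex3a in stem cells, and Mex3a and Msi1 in enterocytes, goblet cells and secretory progenitors, with Msi1 in Paneth cells), and 2 genes of the group between stem and TA cells; thinning moved the median of all genes in stem cells from 0.03 to 0.20. With no filter 834 genes differed between stem and TA cells. Hopx in Paneth cells turned from 0.89 to -0.0249 thinned, and Hopx in TA cells was at 0.0399 without replicate 1 and -0.743 without replicate 2. With no test, the difference of stem cells from the others was positive for 4 of the 5 genes in either mouse alone and in both together, but Bmi1 was at -0.28 and 0.31 and Hopx at 0.08 and -0.25 in replicates 1 and 2. That from TA cells was positive for 4 of 5 in each mouse and 5 together, with Bmi1 at -0.06 in replicate 1 and Hopx at -0.26 in replicate 2. The Hopx call in goblet progenitors was lost in 7 alternatives and that in TA cells in 5. The causes were not tested. Relative log expression size factors changed no call of the 5 genes. Clu and Anxa1 had 45 and 5 UMIs in all kept cells, too few to pass the filter, and 2 mice of 1 genotype allow no statement on miR-375.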
